A study of Mus musculus with 6 samples.

Results

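The collagen chain genes were followed in adipose progenitors of mice that ate rosiglitazone, a drug that activates the nuclear receptor PPARgamma. Members were all probes of the array whose gene symbol is Col, a number, the letter a and a number, which gave 41 of the 19057 named genes and 91 of the 45281 probes, and every one of their symbols was matched through its Entrez number to RefSeq. Of these 91 probes, 36, from 25 genes, were detected (p under 0.05 against background) on 3 or more of the 6 arrays and were tested for change. The other 55 are accounted for by their detection alone.

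Collagens are trimers of chains that wind into a triple helix of repeated glycine-containing triplets. Fibrillar chains build the load-bearing fibres of connective tissue, type IV chains form the sheet of the basement membrane that surrounds every fat cell and vessel, type VIII and X chains form short-chain networks, type VI chains form beaded filaments, and fibril-associated chains sit on the surface of fibres. In white fat the stromal cells around adipocytes and vessels are known as a main source of fibrillar and type VI collagen.

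Both groups came from adult AdipoTrak mice (PPARgamma-tTA;tetO-H2B-GFP), 2 to 6 months old, in which the Pparg promoter drives a transactivator that turns on a GFP-tagged histone, and all cells were therefore sorted on a Pparg reporter whether or not the animals were treated. The untreated group ate normal chow, and the treated group ate the same chow with 0.0075% rosiglitazone over 2 months. White fat of the gonadal, inguinal and interscapular depots was dissociated with collagenase, and GFP-positive stromal-vascular cells were collected, so the values are RNA of dissociated cells and not of deposited matrix. Each group had 3 cohorts of 3 to 4 mice, with 1 array per cohort, so the errors given here are the spread between cohorts. Total intensity per array was 9478692 to 14831319 units, and 34.2% to 38.4% of all probes were detected. Among the collagen probes 35 to 38 were detected per array. Of 12 adipose progenitor markers with a probe, 12 were measured and 0 passed the test (adjusted p under 0.05), where 2.87% of all 9760 genes passed. At that share a list this short would hold few or no passing genes, so such a count does not show that a cell type was unchanged. Of 9 mature adipocyte genes with a probe 5 were measured and 0 passed: Lpl, Adipoq, Plin4 and Lep were detected on all 6 arrays and Cidec on 4, while Fabp4 was detected on 0. With bulk RNA, fewer cells of a type and less RNA per cell cannot be told apart.

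Of the collagen probes 39.6% were kept, and of all probes on the array 36.3%; each class held both kept and other probes, and no difference between classes was tested. Of the 27 fibrillar probes 9 were kept, from 7 of 11 genes: Col1a1, Col1a2, Col3a1, Col5a1, Col5a2, Col5a3 and Col27a1. The cartilage chains Col2a1, Col11a1 and Col11a2 and the minor fibrillar chain Col24a1 were not kept, and no probe of theirs was detected on more than 2 arrays. Basement membrane chains had 10 of 18 probes kept, from 7 of 9 genes, and those not kept were Col4a3 and Col4a6. Network chains had 3 of 6 probes kept, 2 of Col8a1 and 1 of Col8a2, while the probe of Col10a1, the chain of hypertrophic cartilage, was detected on 0 arrays. Beaded filament chains had 6 of 9 kept (Col6a1, Col6a2 and Col6a5). Fibril-associated chains had 3 of 14 kept (Col14a1 and Col16a1), and 9 probes of this class, among them both probes for Col22a1 and those for Col19a1 and Col9a2, were detected on 0 arrays. Of the transmembrane and remaining chains, 5 of 17 probes were kept (Col17a1, Col23a1, Col26a1 and Col28a1). In all, 29 collagen probes were detected on every array, 7 on 3 to 5 arrays, 17 on 1 or 2 and 38 on none. Probes of the same gene could disagree on detection: Col5a2 had 2 probes detected on every array and 3 detected on none. At the detection limit, the Col8a1 probe ILMN_1255925 and the Col17a1 probe ILMN_1216228 were kept with 3 arrays each, and the probes Col9a1 ILMN_2939882 and Col24a1 ILMN_1231275 stayed out with 2 arrays each. Both of those kept probes were detected in only 1 of the groups, so a difference between groups was built into their passing. No probe was named here for 4 further chains of the class lists: Col6a3, Col12a1, Col20a1 and Col21a1.

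**Figure D1:**
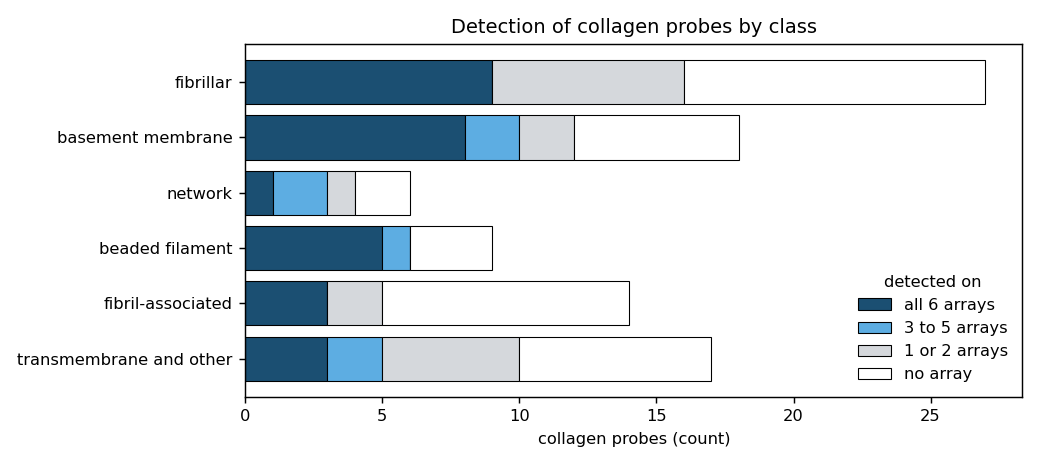
Number of collagen probes in each class, divided by the number of arrays on which the probe was detected (detection p under 0.05). Dark and light blue segments are the 36 probes tested for change; fibrillar and basement membrane chains hold 19 of them.

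Rosiglitazone was compared with untreated cells to ask which collagen transcripts differ under a PPARgamma agonist. Both chains of type VIII collagen changed, and in opposite directions: Col8a1 fell on both of its kept probes and Col8a2 rose. Fibrillar probes had log2 changes from -0.26 to 0.53, and none passed the test. Those of Col4a1 and Col4a2 were 0.09 and 0.14, and those of Col6a1 and Col6a2 ran from -0.04 to 0.10, and none of these passed either. Beyond type VIII there were 6 genes, Col18a1, Col4a5, Col7a1, Col6a5, Col1a2 and Col17a1, whose groups did not overlap on any kept probe, but none passed the test. With a threshold of 0.05 on the adjusted p, 1 of the 36 collagen probes rose, 2 fell and 33 did not pass; with median scaling of the arrays 0 were higher and 3 lower. This is 8.33% of the kept collagen probes, where 2.38% of all 16442 kept probes passed, 0.493% higher and 1.89% lower. Counted once per gene by the brightest kept probe, 2 of 25 collagen genes passed (8.0%), against 2.87% of 9760 genes. The groups did not overlap for 13 collagen probes from 9 genes (36.1%), 8 higher and 5 lower, and for 17.2% of all kept probes. These shares are descriptions, because several of the probes belong to the same gene and 2 passed detection through only 1 group. The median log2 change was 0.05 over the 36 collagen probes and 0.04 over all kept probes. By class it was 0.09 for fibrillar, 0.11 for basement membrane, -0.02 for beaded filament, -0.11 for fibril-associated and 0.13 for transmembrane and remaining probes. For the 3 network probes it was -1.26, the value of 1 Col8a1 probe.

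**Figure D2:**
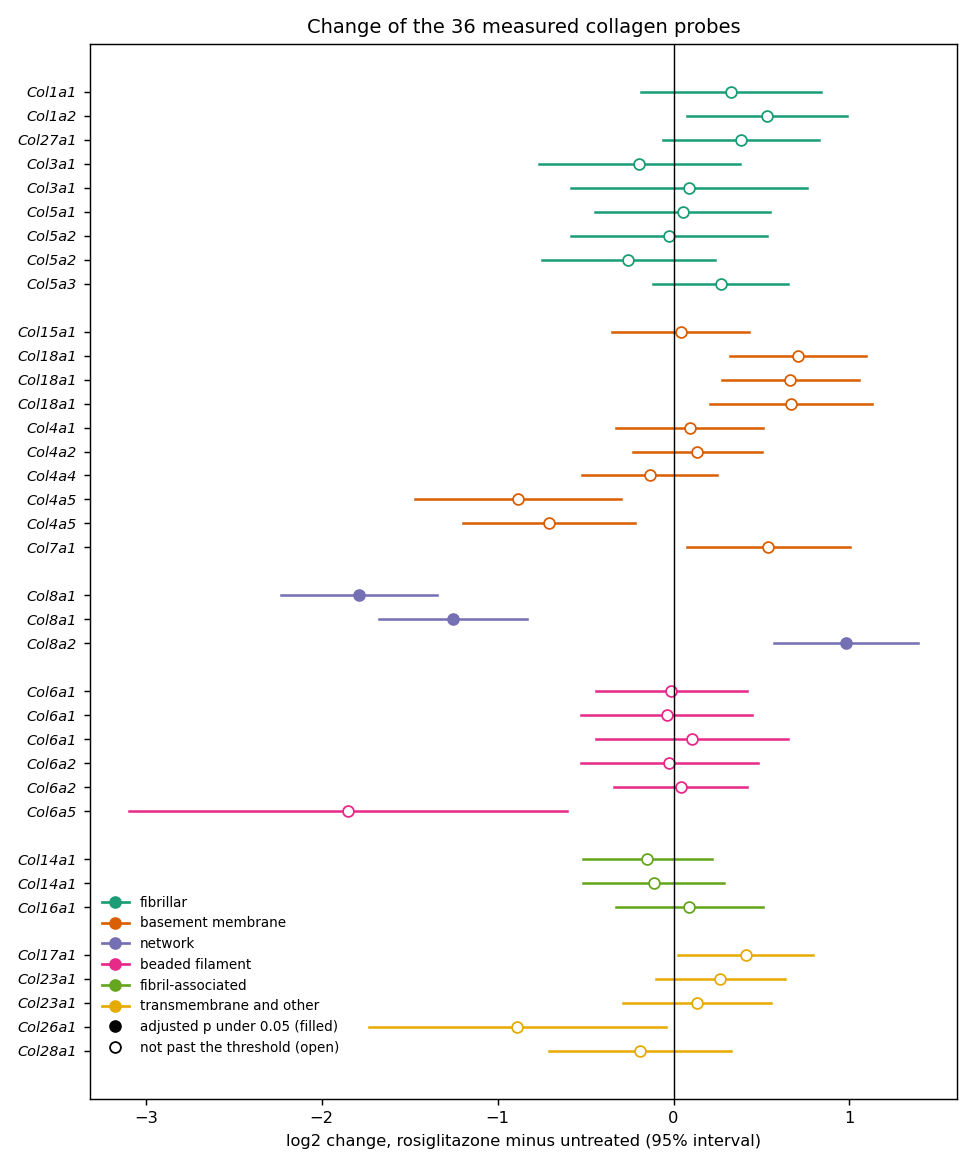
Log2 change, rosiglitazone minus untreated, of the 36 collagen probes tested, with 95% intervals of the moderated fit, 1 line per probe and coloured by class. The filled points, 2 probes of Col8a1 and 1 of Col8a2, passed the threshold and lie on opposite sides of 0; most other intervals include 0.

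The network chains held all 3 calls. Type VIII collagen is a short-chain collagen of vessel walls and of the corneal Descemet's membrane, and its alpha chains, encoded by Col8a1 and Col8a2, form trimers of 1 kind or mixed trimers. The Col8a1 probe ILMN_2503553 read 6.52, 6.38 and 6.11 log2 units in untreated replicates 1 to 3 and 4.35, 4.44 and 4.86 in rosiglitazone replicates 1 to 3. All 3 treated arrays lay below all 3 untreated ones. The means were 6.34 ± 0.21 and 4.55 ± 0.27 (SD, n = 3), a log2 change of -1.79 ± 0.20 (SE; limma adjusted p = 0.00091), or 3.45-fold lower. As deposited, before any correction, this probe had intensities of 189.5, 126.6 and 176.0 units without the drug and of 85.3, 99.7 and 95.7 with it, where the detection p-values were 0.474, 0.239 and 0.00855. The treated arrays were thus at or near background, with detection on 1 of 3, so the fold depends on how background is set: the log2 change was -0.71 on the authors' normalized table. The other Col8a1 probe, ILMN_1255925, read 5.53, 5.99 and 5.65 log2 units untreated and 4.32, 4.43 and 4.66 treated. It was detected on 3 untreated and 0 treated arrays, so it passed detection through the untreated group alone (log2 means 5.73 and 4.47; adjusted p = 0.0056). With each treated value set no lower than the lowest signal called detected on its array, the means differed 2.03-fold. That is an estimate without its error and not a lower limit. The 95% interval of the fitted log2 change ran from -1.68 to -0.84. These values also depend on how background is set, as the log2 change was -0.45 on the authors' normalized table.

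Col8a2, encoding the partner chain, went the other way. Its kept probe ILMN_2688966 read 6.82, 6.73 and 6.39 log2 units untreated and 7.80, 7.55 and 7.54 treated, and was detected on all 6. Every treated array was above every untreated one. The means were 6.65 ± 0.22 and 7.63 ± 0.15 (SD, n = 3), a log2 change of 0.98 ± 0.18 (SE; adjusted p = 0.019), or 1.97-fold higher. As deposited it read 215.7, 141.2 and 197.7 units untreated and 245.2, 291.4 and 268.4 treated. Its call was lost with median scaling (log2 change 0.97, adjusted p = 0.204), with no detection filter (adjusted p = 0.064), and without untreated replicate 2 or 3 or rosiglitazone replicate 1 or 2 (adjusted p = 0.0625, 0.057, 0.0826 and 0.0588); the change stayed between 0.86 and 1.06 when each array was left out. The 2 other Col8a2 probes were detected on 0 and 1 arrays and give no second reading. By p-value the Col8a1 probes ranked 66 and 155 and the Col8a2 probe 259 among all kept probes.

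**Figure D3:**
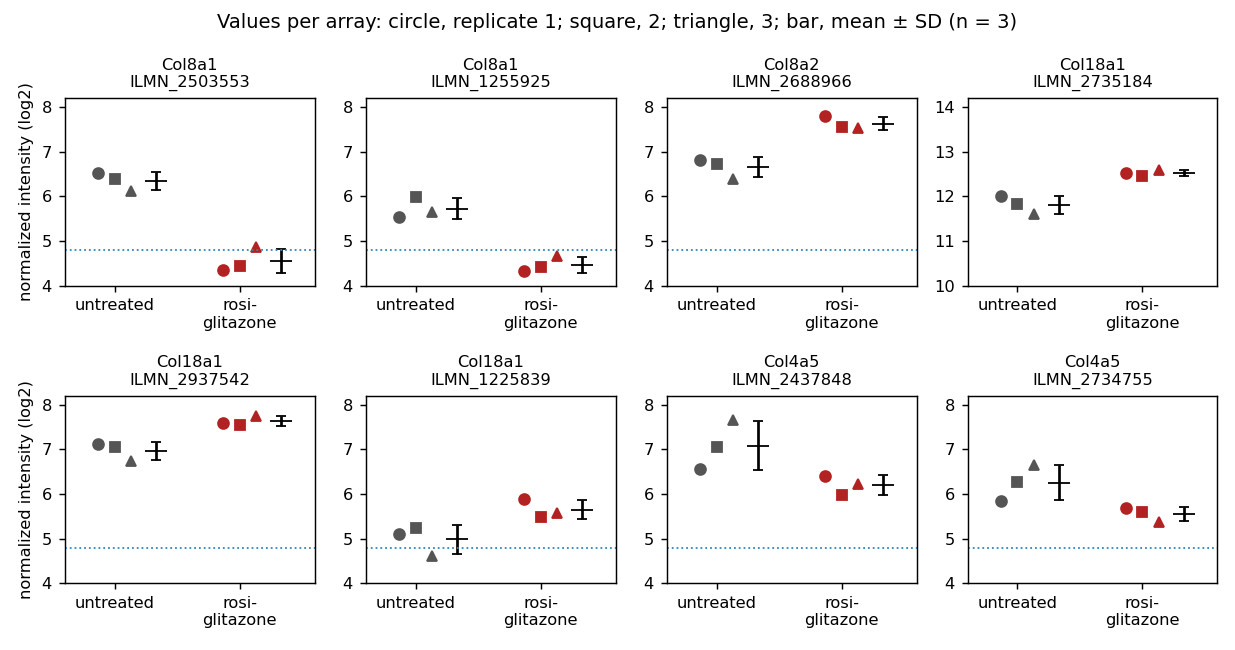
Normalized intensity (log2) on each array for the probes of Col8a1, Col8a2, Col18a1 and Col4a5, with symbols for replicates, bars for mean and SD (n = 3), and a dotted line at 4.79, the highest of the 6 arrays' lowest detected signals. Col8a1 lies near or below that line with rosiglitazone while Col8a2 and Col18a1 are above their untreated values on every treated array; the brightest Col18a1 probe has a higher axis range than the other panels.

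Markers of other cell types were counted over the same arrays, where 2.87% of all genes passed the test. Of 14 measured macrophage and monocyte markers 13 fell and 0 rose, with a summed level of 36415 to 42587 normalized units on untreated and 9899 to 18544 on rosiglitazone arrays, and Itgam was detected on 0 arrays. Of 9 measured mural cell markers, genes of pericytes and smooth muscle that surround vessels, 2 fell, and the summed level was 2113 to 5185 untreated and 1685 to 2727 treated; the smooth muscle gene Cnn1 was detected on 0 arrays. Acta2, which did not pass, made up much of that sum and of its spread, with 9.85, 10.66 and 11.95 log2 units on the untreated arrays, and the 2 that fell were Notch3 and Mcam. Of 14 endothelial markers 0 passed (5609 to 7725 untreated, and 3806, 4026 and 9704 on rosiglitazone replicates 1 to 3). Rosiglitazone replicate 3 thus lay above every untreated array and the other treated arrays below all of them. Of 5 mesothelial markers 0 passed (194 to 254 untreated, 206 to 475 treated; Msln on 0 arrays). Of 2 Schwann cell markers 0 passed, with a summed level of 1276 to 1563 untreated and 1633 to 3148 treated, a sum made almost wholly of Ngfr (log2 means 10.37 and 11.20), while Mbp went from 6.43 to 6.29; Sox10 and Cdh19 were detected on 0 arrays. The part of these cells in the changes of Col8a1 and Col8a2 was not tested.

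The bases upstream of the annotated starts are shown for the type VIII pair and for Col18a1, whose probes separated the groups, so that the promoters of chains with opposite changes can be set side by side. They are the 250 bases before each RefSeq start on GRCm38.p6, written 5′ to 3′ on the gene's strand, with capitals for matches on either strand to any of 6 motifs: the nuclear receptor half-site AGGTCA, the PPAR direct repeat made of that half-site written 2 times with N between, the TATA box TATAAA, the GC box GGGCGG, the AP-1 site TGANTCA and the CCAAT box CCAAT. A half-site lies within each direct repeat.
Col8a1, chr16:57754738-57754987, minus strand: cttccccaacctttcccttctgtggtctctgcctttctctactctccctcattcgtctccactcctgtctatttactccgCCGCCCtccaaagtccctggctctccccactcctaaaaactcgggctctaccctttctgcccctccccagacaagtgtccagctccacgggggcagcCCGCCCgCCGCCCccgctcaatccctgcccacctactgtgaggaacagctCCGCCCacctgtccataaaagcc
Col8a2, chr4:126286544-126286793, plus strand: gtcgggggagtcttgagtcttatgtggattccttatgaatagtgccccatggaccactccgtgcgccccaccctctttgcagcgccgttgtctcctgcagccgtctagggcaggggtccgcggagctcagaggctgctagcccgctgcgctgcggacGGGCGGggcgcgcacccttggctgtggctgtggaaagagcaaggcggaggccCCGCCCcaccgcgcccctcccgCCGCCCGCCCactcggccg
Col18a1, upstream start, chr10:77166531-77166780, minus strand: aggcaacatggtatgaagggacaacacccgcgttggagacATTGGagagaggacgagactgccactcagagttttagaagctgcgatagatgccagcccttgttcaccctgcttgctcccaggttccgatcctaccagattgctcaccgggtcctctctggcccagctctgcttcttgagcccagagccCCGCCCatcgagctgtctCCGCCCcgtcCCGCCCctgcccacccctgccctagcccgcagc
Col18a1, downstream start, chr10:77113706-77113955, minus strand: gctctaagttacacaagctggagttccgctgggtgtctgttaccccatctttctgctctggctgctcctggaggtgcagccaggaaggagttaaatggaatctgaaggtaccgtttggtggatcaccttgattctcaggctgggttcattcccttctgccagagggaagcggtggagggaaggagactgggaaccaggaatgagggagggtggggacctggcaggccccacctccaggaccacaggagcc

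The type VIII windows each held 4 GC box matches and none of the other motifs, but differed in composition: 60.8% G and C with 10 CpG for Col8a1, and 70.0% with 24 CpG for Col8a2. The upstream Col18a1 window held 3 GC boxes and 1 CCAAT box with 12 CpG, and the downstream one held no match and 3 CpG. GC boxes were in 22 of 36 collagen windows, from the 33 collagen genes with a window, and in 32.7% of all 32851 windows of this length. Collagen windows were also richer in these letters, with a median of 59.4% G and C and 10 CpG against 52.4% and 6 for all windows, and the part of this composition in the GC box share was not tested. The PPAR direct repeat was in 0 of 36 collagen windows and in 0.0335% of all windows, and its half-site in 7 of 36 and 14.0%. TATA boxes were in 5 of 36 and 12.4%, AP-1 sites in 1 of 36 and 6.75%, and CCAAT boxes in 13 of 36 and 33.8%. A match or its lack describes only these letters.

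Basement membrane chains had no call, but Col18a1, Col4a5 and Col7a1 separated the groups on each of their kept probes. Col18a1 encodes a proteoglycan collagen of vessel and epithelial basement membranes, whose C-terminal fragment is endostatin. Its brightest probe, ILMN_2735184, read 12.00, 11.83 and 11.60 log2 units untreated and 12.52, 12.45 and 12.59 with rosiglitazone. The means were 11.81 ± 0.20 and 12.52 ± 0.07 (SD, n = 3), and the log2 change of 0.71 ± 0.17 (SE) missed the threshold (adjusted p = 0.076). This value is past the threshold under 4 of 15 alternatives, among them the authors' normalized table (0.69, adjusted p = 0.020) and a trended, robust variance (adjusted p = 0.014). The 2 other probes, ILMN_2937542 and ILMN_1225839, differed by 0.66 (adjusted p = 0.104) and 0.67 (adjusted p = 0.188), and all 3 probes were higher on every treated than on every untreated array. Probes of 1 gene on 1 array share the same RNA and are not replicates.

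Col4a5, an X-linked chain that joins mixed type IV networks, had negative changes on both probes. ILMN_2437848 read 6.55, 7.05 and 7.65 log2 units untreated and 6.40, 5.97 and 6.23 treated, and ILMN_2734755 read 5.85, 6.27 and 6.65 untreated and 5.68, 5.59 and 5.37 treated. The groups did not overlap on either, although untreated replicate 1 lay close to the highest treated array on both. The log2 changes were -0.89 ± 0.26 and -0.71 ± 0.22 (SE; adjusted p = 0.162 and 0.187). Untreated replicate 3 was highest on both probes, and without it the changes were -0.60 and -0.50.

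Type IV genes lie as pairs on opposite strands that start close together, and the pairs differed in detection. The starts of Col4a1 and Col4a2, the chains of the ubiquitous type IV network, are 21 bases apart in RefSeq, and both genes were detected on all 6 arrays. Col4a1 read 13.58, 13.58 and 13.19 log2 units untreated and 13.70, 13.58 and 13.34 treated, and Col4a2 12.50, 12.47 and 12.47 untreated and 12.62, 12.47 and 12.77 treated. The groups overlapped for both. Their log2 changes were 0.09 (95% interval -0.33 to 0.51) and 0.14 (-0.23 to 0.50). The starts of Col4a5 and Col4a6 are 1343 bases apart, yet both Col4a5 probes were detected on every array and of 4 Col4a6 probes none was detected on more than 1. In the pair of Col4a3 and Col4a4, chains of the kidney glomerulus, the Col4a3 probe was detected on 0 arrays and 1 of 3 Col4a4 probes was kept, with 3 untreated and 1 treated arrays and a log2 change of -0.14 (adjusted p = 0.830). Col15a1, a relative of Col18a1 in basement membranes, had a log2 change of 0.04 (-0.35 to 0.43; 11.56 ± 0.22 untreated and 11.60 ± 0.05 treated, SD, n = 3). Col7a1, the anchoring fibril chain, read 5.26, 5.89 and 5.65 untreated and 6.25, 5.90 and 6.28 treated, and its log2 change was 0.54 (adjusted p = 0.315). Its groups did not overlap, but only just, with 5.895 on untreated replicate 2 and 5.900 on rosiglitazone replicate 2.

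Fibrillar chains had 0 of 9 probes past the threshold, 6 with positive and 3 with negative changes, from -0.26 to 0.53. Col1a2, the alpha 2 chain of type I collagen, read 11.004, 10.89 and 10.39 log2 units untreated and 11.48, 11.26 and 11.14 with rosiglitazone, the one fibrillar probe without overlap. Its log2 change was 0.53 ± 0.20 (SE; adjusted p = 0.312). Its partner Col1a1 read 11.18, 11.49 and 11.40 untreated and 11.48, 11.38 and 12.19 treated; rosiglitazone replicate 3 stood above the rest and the groups overlapped. The change was 0.33 (adjusted p = 0.654), and 0.07 without rosiglitazone replicate 3. Col3a1, which forms mixed fibres with type I, had 1 probe at -0.19 (adjusted p = 0.836) and 1 at 0.09 (adjusted p = 0.945). On the brighter one, ILMN_1258629, the untreated arrays alone ran from 10.82 to 11.88, wider than the treated 10.95 to 11.29. Among the type V chains, which set fibre diameter, the log2 change was 0.05 for Col5a1 (-0.44 to 0.55), -0.03 and -0.26 for the Col5a2 probes and 0.27 for Col5a3, and none passed. Col27a1 read 5.49, 4.99 and 4.93 untreated and 5.57, 5.65 and 5.34 treated (log2 change 0.38, adjusted p = 0.503).

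The beaded filament chains Col6a1 and Col6a2, which share a trimer and are neighbours on mouse chromosome 10, had log2 changes from -0.04 to 0.10 over 5 probes. The brightest Col6a1 probe was 13.89 ± 0.22 untreated and 13.88 ± 0.22 treated (SD, n = 3), with a 95% interval of the log2 change from -0.44 to 0.42, and Col6a2 was 12.12 ± 0.36 and 12.10 ± 0.27 (-0.53 to 0.48). Col6a5 encodes an alternative chain that can take the place of the Col6a3 product. It read 6.26, 5.46 and 8.25 log2 units untreated and 4.42, 5.20 and 4.80 treated. The groups did not overlap, but the untreated arrays were widely spread, with replicate 3 far above the rest. Its log2 change of -1.85 ± 0.56 (SE) did not pass (adjusted p = 0.171), and it was -1.02 without untreated replicate 3. With median scaling it passed (-1.87, adjusted p = 0.047).

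Fibril-associated chains had 0 of 3 probes past the threshold. Col14a1, which binds the surface of fibres, read 9.94, 10.12 and 9.97 untreated and 9.88, 9.73 and 9.97 treated on its brighter probe (log2 change -0.15, adjusted p = 0.798), and its other probe differed by -0.11 (adjusted p = 0.874). Col16a1 differed by 0.09 (adjusted p = 0.904). The groups overlapped on all 3.

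Among the remaining chains, 0 of 5 probes passed. Col17a1, the hemidesmosome collagen of epithelia, was detected on 0 untreated and 3 treated arrays (4.41, 4.36 and 4.65 against 4.85, 5.04 and 4.76 log2 units; adjusted p = 0.371). It was kept through the treated group alone, so a positive difference was built into its passing. With each untreated value set no lower than the lowest signal detected on its array, the means differed 1.12-fold. That is an estimate without its error and not a lower limit. The log2 change of Col17a1 was 0.14 on the authors' normalized table. Col26a1 read 6.08, 6.40 and 4.62 untreated and 4.78, 4.72 and 4.94 treated. Untreated replicate 3 lay with the treated arrays, and the log2 change of -0.89 (adjusted p = 0.378) was -1.39 and passed without that array (adjusted p = 0.0051). Col23a1, a transmembrane collagen, differed by 0.27 and 0.13 on its 2 probes (adjusted p = 0.597 and 0.854), and Col28a1 by -0.19 (adjusted p = 0.819). On the first Col23a1 probe the groups did not overlap (5.53, 5.65 and 5.41 untreated, 5.91, 5.73 and 5.76 treated), and on the other they did.

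Where a gene had several kept probes, the signs of their changes were compared, as a description without the share over all genes. Of 9 such genes 6 had 1 sign on all probes, and the probes of a gene differed by at most 0.53 in log2 change, the distance between the Col8a1 probes. The 3 with both signs, Col3a1, Col6a1 and Col6a2, had changes between -0.19 and 0.10. Chains that share a trimer were also set against each other within each array, for 4 pairs that were detected on all 6 arrays and chosen after their values were seen, by the log2 ratio of their brightest probes; a ratio of different probes has no absolute meaning, and only its shift was read. The ratio of the type VIII pair is not given because Col8a1 was not above background on 2 treated arrays. For Col1a1 to Col1a2 the shift was -0.21, for Col5a1 to Col5a2 0.08, for Col4a1 to Col4a2 -0.04 and for Col6a1 to Col6a2 0.01, each smaller than the SD of that ratio within the untreated group (0.42, 0.38, 0.22 and 0.23).

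The collagen probes also varied between arrays of a group. On untreated replicate 3, 21 of the 36 probes had their lowest untreated value, and 8 of the 9 fibrillar probes did. The fibrillar median there was 0.37 log2 units below the untreated mean, against 0.31 above it on untreated replicate 1. Among treated arrays the fibrillar medians ran from -0.13 to 0.10. Without untreated replicate 3 the median change over the 36 probes was -0.09, and without untreated replicate 2 it was 0.15.

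**Figure D4:**
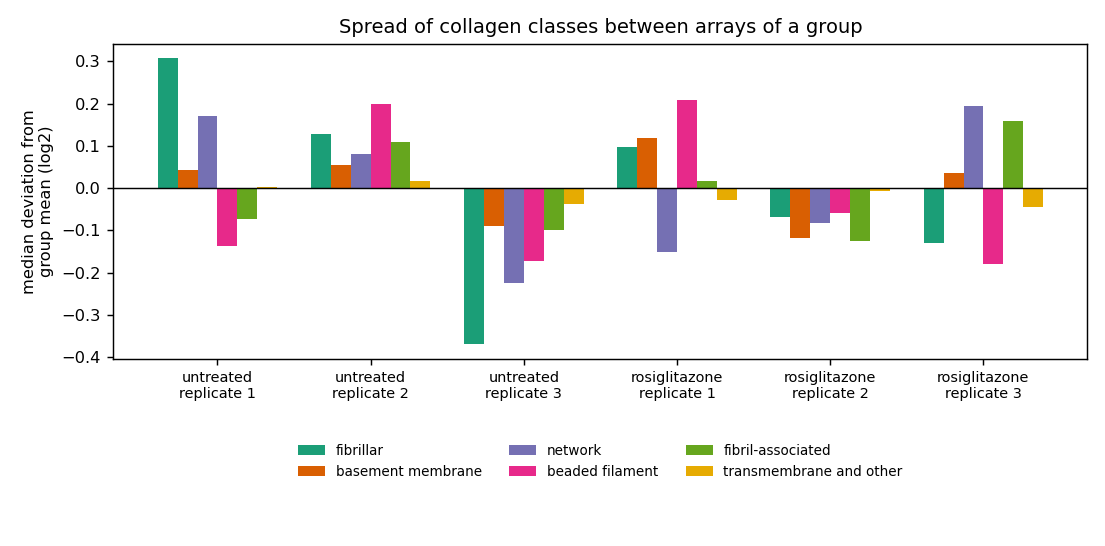
Median deviation (log2) of the kept probes of each class from the mean of their own group, for each of the 6 arrays. Fibrillar probes run from 0.31 above to 0.37 below their mean among the untreated arrays, and from -0.13 to 0.10 among the treated arrays.

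Genes that modify, fold, process, bind or degrade collagen were counted beside the chains. Of 46 measured genes of these lists 0 rose and 2 fell (4.35%), where 2.87% of all genes passed, and both are collagen-degrading enzymes: the collagenase Mmp13, 6.88 ± 0.23 untreated and 4.65 ± 0.14 treated (SD, n = 3; adjusted p = 0.00031), and the gelatinase Mmp9, 6.56 ± 0.48 and 4.93 ± 0.19 (adjusted p = 0.0053). Mmp13 was detected on 1 treated array. Macrophage markers fell over the same arrays, and their part in both changes was not tested. The other 5 measured enzymes of that list, among them Mmp2 and Mmp14, did not pass, and Mmp2 had log2 means of 13.85 in both groups. None of 15 prolyl and lysyl modification genes passed. The 2 with the smallest p-values were the prolyl 3-hydroxylase P3h2, with a log2 change of -1.02 (adjusted p = 0.087), and the lysyl hydroxylase Plod2, with 0.65 (adjusted p = 0.182). None of 10 folding and secretion genes passed; the collagen chaperone Serpinh1 was 13.79 ± 0.17 and 13.86 ± 0.10 (SD, n = 3), and the smallest p-values belonged to the ion channel gene Tmem38b at -0.59 (adjusted p = 0.201) and the prolyl isomerase Fkbp9 at 0.30 (adjusted p = 0.602). None of 8 processing and crosslinking genes passed, with the lysyl oxidases Lox at 0.59 and Loxl4 at 0.45 (adjusted p = 0.376 and 0.382). None of 6 collagen receptors passed, with the tyrosine kinase receptor Ddr1 at 0.22 and the integrin Itga1 at -0.22 (adjusted p = 0.738 and 0.748).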

How the data were processed

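The deposited non-normalized table holds a linear intensity and, per the file headers, a detection p-value for each probe and array; from its values no background was subtracted. The authors' deposited normalized table, normalized by a method that the sources used here do not give, served as an alternative; the deposited series table equals it. Intensities were background-corrected by normexp from the detection p-values (offset 16), quantile-normalized and put on the log2 scale (limma 3.58.1, R 4.3.3). Probes with detection p under 0.05 on at least 3 of 6 arrays were kept (16442). Groups were compared with lmFit and eBayes, with Benjamini-Hochberg adjustment over all kept probes and a threshold of 0.05. The offset understates changes of dim probes. The number of arrays limits the precision.

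Gene names came from the platform annotation; of all probes 34885 had 1 symbol, 18 several and 10378 none. Every probe of a named chain was counted. Followed through the alternatives were those past the threshold, the 2 smallest p-values per class and the brightest probe of 13 common chains, of which Col6a3 had no named probe. Kept probes without overlap between groups were added after their values were seen. Members and lists were chosen with earlier results of these data known. The code was tested on simulated data. Alternatives covered background, normalization, source table, filter, variance model, array weights, a replicate block and each array left out. Replicate numbers were not used as pairs. No bead chip is identified, so no chip block was run. Promoter sequences are RefSeq's, GRCm38.p6; 33 of 41 genes matched.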

Additional observations from a re-analysis of the deposited data

How the results depend on the processing

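The count of collagen probes past the threshold was 3, with 2 to 3 when each array was left out and 1 (Col8a2) when detection on all 6 arrays was required, which removes both Col8a1 probes. Both Col8a1 probes passed under each of the 14 alternatives that kept them. Their log2 changes ran from -1.92 to -0.70 and from -1.33 to -0.45, smallest without background correction. The detection filter was not reapplied when an array was left out. ILMN_1255925 was detected on the 3 untreated arrays alone, so without 1 of them it would not have met that filter. Its passing in those fits is therefore no added support. With an offset of 50, no background correction, the authors' table or the trended variance the count of collagen probes was 4, with 2 higher. Over all kept probes the count was 392, and 260 with median scaling, 157 without a filter and 220 to 446 with 1 array left out; without untreated replicate 1 it was 220 and without untreated replicate 2 258. Array weights gave 556. For the 46 pathway genes the count of 2 became 1 without a filter and 1 with detection on all 6 arrays, and was 2 to 3 with 1 array left out.

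Of 27 probes followed, 9 changed sign under some alternative, and 0 of these passed in any. With median scaling Col5a1 was -0.0080, Col4a1 -0.0028 and Col15a1 -0.026. With 1 array left out, Col5a1 ran from -0.14 to 0.20, Col4a1 from -0.040 to 0.19, Col15a1 from -0.039 to 0.16, Col3a1 from -0.47 to 0.066, Col5a2 from -0.31 to 0.20, Col14a1 (dimmer probe) from -0.19 to 0.0054, Col6a1 from -0.13 to 0.11 (brightest probe) and -0.16 to 0.28 (dimmest), and Col6a2 from -0.18 to 0.18.

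Whether the replicate numbers pair the arrays could not be settled from so few arrays. Correlations of same-numbered deviations were 0.045, -0.0057 and 0.35, and those of differently numbered ones ran from -0.30 to 0.27. With the number as a block, 3 collagen and 475 of all kept probes passed. Dim signal limits Col8a1, Col6a5 and Col26a1 on treated arrays.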
